A study of Mus musculus with 2 samples.

Results

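Cytosolic ribosomal protein genes encode the proteins of the large and small subunits of the ribosome that translates nuclear-encoded mRNA. They were taken as every gene whose symbol is Rpl or Rps with a number and an optional suffix, together with Rplp0, Rplp1, Rplp2 and Rpsa. Of the 31055 genes in the count tables, 84 matched, and 82 reached 10 CPM (UMIs of the gene per 1000000 UMIs of the library or class) over all kept barcodes of either library, among 8677 genes that did. The 82 comprise 50 that encode large-subunit proteins and 32 that encode small-subunit proteins. Rpl10l and Rpl3l did not reach that level, at 0.011 and 0.21 CPM in the uninjured library and 0 and 0.39 CPM at day 3. The members just above it were Rpl7l1, at 83.6 and 86.0 CPM, and Rpl39l, at 91.8 and 84.9 CPM.

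The cells came from the periosteum, the membrane on the outer surface of bone, of Prx1Cre;mTmG mice. Prx1 (Prrx1) is active in the limb mesenchyme, and Cre switches a cell and its descendants from membrane tdTomato to membrane EGFP, so both groups carry the same 2 alleles. Cells were obtained by explant culture, and the labels do not give the strain, age or number of mice in a library. There was 1 library from uninjured mice, labelled day 0 after injury, and 1 from mice whose tibia had been fractured 3 days before. No group had a replicate, so no test was made, every interval covers counting error only, and condition, animals and library cannot be told apart. The study's title names the response of skeletal stem and progenitor cells to bone injury, and the ratios below describe that contrast for ribosomal protein genes.

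Ribosomal proteins are needed in near-equal numbers, and their mRNAs are among the most abundant in a growing cell. Most of these mRNAs begin with a C and a run of pyrimidines, the 5′ terminal oligopyrimidine (TOP) tract, through which growth signalling by mTORC1 sets how much of the mRNA is translated. Several members also act outside the ribosome, and loss of 1 copy of some causes Diamond-Blackfan anaemia, a failure of red cell production.

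The uninjured library held 4573 barcodes with 94034112 UMIs (median 19366) and the day-3 library 16332 barcodes with 227191961 UMIs (median 7030). After filtering, 4274 and 12790 were kept, and 2 kept barcode sequences occurred in both libraries (3 before filtering). The first 7 bases of the barcodes took 480 different sequences in the uninjured and 960 in the day-3 library, of which 129 occurred in both, and 73.8% of uninjured barcodes began with bases that no day-3 barcode had. The 2 libraries thus held largely different barcode sets, although the labels name the same kit version for both. Whether the capture chemistry differed is not known, and such a difference and the condition cannot be told apart in any day-3 over uninjured ratio. Clusters built without ribosomal protein genes gave 4 classes. EGFP lineage cells, the 10 clusters with at least 1000 CPM of EGFP, numbered 2202 and 3358. C1q macrophages, 4 clusters led by macrophage markers with C1qa, C1qb and C1qc each in at least 50% of cells, numbered 1099 and 3259. Another cluster that best matched macrophage markers, with 14 and 1598 cells, fell just under this limit at 48.9%. It was left out, and no alternative setting added that cluster as a whole to the class. Osteoclasts, 1 cluster led by Acp5, Mmp9 and Ctsk, numbered 88 and 627, and neutrophils, 1 cluster led by Ngp and Camp, 7 and 464, so that neutrophils were described at day 3 alone. EGFP stood at 2567 and 1841 CPM in the EGFP lineage class, against 29.8 to 98.0 CPM in macrophages and osteoclasts. EGFP lineage cells and macrophages of the 2 libraries fell mostly in different clusters, whereas the osteoclasts shared 1. From the uninjured to the day-3 library, the median mitochondrial share went from 2.55% to 4.37% in EGFP lineage cells, 2.87% to 4.28% in macrophages and 4.43% to 5.81% in osteoclasts. Cells with Y-linked and no Xist UMIs went from 83.2% to 14.5% of EGFP lineage cells, and the summed CPM of neutrophil markers in that class went from 13.1 to 213.8. The part of these differences in the results below was not tested, other than by the male-cell values given where they bear on a result.

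Sequence windows at the annotated starts of 3 members with high and 3 with low day-3 ratios are shown first, because the pyrimidine tract is the feature these mRNAs are known to share. They were taken from the members with a pyrimidine run that begins within 5 bases of the start. Each window holds 15 bases before and 15 bases from the RefSeq start (build GRCm38.p6), written 5′ to 3′ on the transcribed strand. Capitals mark a run of a C followed by at least 4 more C or T that begins within 5 bases of the start.
Rps21, chr2:180257364-180257393, plus strand: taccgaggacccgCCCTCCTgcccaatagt
Rpl38, chr11:114668565-114668594, plus strand: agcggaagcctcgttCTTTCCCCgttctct
Rpl39, chrX:37085208-37085237, minus strand: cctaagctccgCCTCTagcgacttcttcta
Rpl13a, chr7:45128731-45128760, minus strand: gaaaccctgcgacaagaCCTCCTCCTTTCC
Rps6, chr4:86857353-86857382, minus strand: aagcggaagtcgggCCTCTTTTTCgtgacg
Rpl31, chr1:39367836-39367865, plus strand: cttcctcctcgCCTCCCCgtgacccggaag

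Rpl4 and Rpl10, whose ratios were lower than that of Rps6, had no run that begins there, although the Rpl4 window holds a run further upstream. The 6 windows thus show what the run looks like and not how it relates to the ratios. Of the 82 members, 62 were in the RefSeq promoter table, and 26 of the 62 (41.9%) had the run beside at least 1 annotated start, against 18.6% of 27025 genes searched the same way. A C at the first base itself, followed by at least 4 more C or T, was found in 13 (21.0%), against 3.01% of all genes. These 13 are not all among the 26, since the runs of Rpl14 and Rpl35 begin further upstream. The search read the transcribed strand only, and annotated starts can lie some bases from the true start. A member outside these counts can thus still hold a pyrimidine run elsewhere in its window.

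Ribosomal protein genes took a smaller share of the UMIs at day 3 in every class that both libraries held. In EGFP lineage cells their share was 31.2% (95% binomial interval 31.15% to 31.18%, Clopper-Pearson) in the uninjured library and 24.3% (24.25% to 24.27%) at day 3, a ratio of 0.778. In C1q macrophages it was 20.9% and 11.3%, a ratio of 0.538, and in osteoclasts 29.9% and 22.5%, a ratio of 0.754. Neutrophils held 10.7% (10.60% to 10.70%) at day 3, and their marker genes alone made up 369490 CPM of their UMIs. The order of the classes was thus the same in both libraries, with EGFP lineage cells highest, osteoclasts next and macrophages lower.

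Single cells gave the same order. The median cell of the EGFP lineage class had 30.9% of its UMIs in ribosomal protein genes (quartiles 28.2% and 34.3%) in the uninjured library and 24.2% (22.1% and 26.2%) at day 3. In macrophages the median went from 20.7% (18.7% and 22.7%) to 9.99% (8.15% and 12.3%), so that the upper quartile at day 3 lay under the lower quartile of the uninjured library. The same held in EGFP lineage cells and in osteoclasts, the latter with medians of 30.1% (27.3% and 32.3%) and 22.5% (19.4% and 25.04%). Day-3 neutrophils had a median of 7.36% (5.68% and 10.9%).

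**Figure D1:**
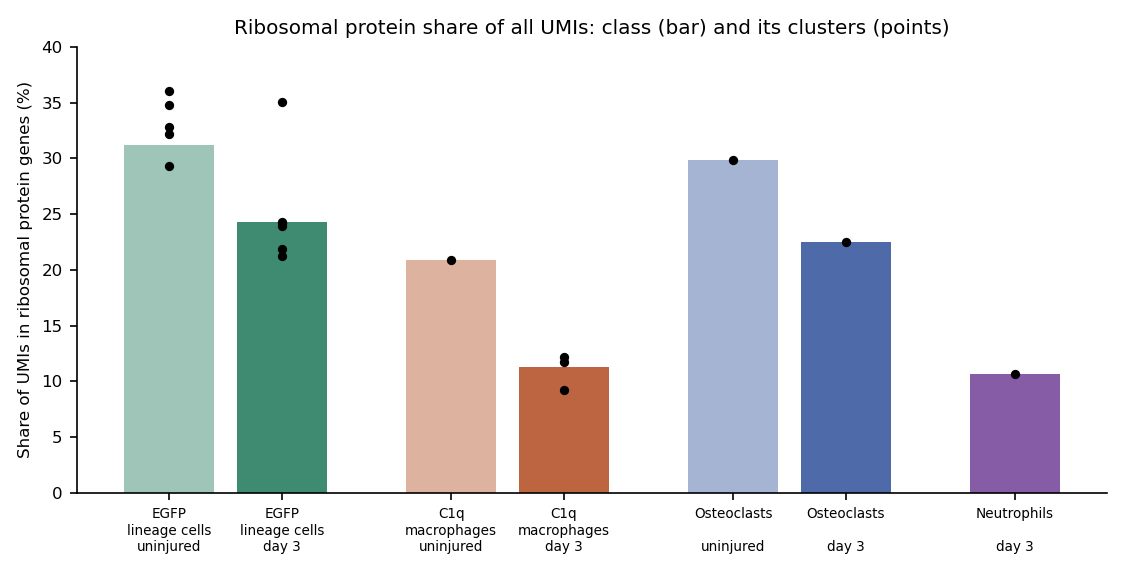
Share of all UMIs in the 82 ribosomal protein genes (%, vertical axis) by cell class and library; bars give the class and points its clusters. Every day-3 bar lies under the uninjured bar of its class, and 1 day-3 EGFP lineage cluster, the contractile one, sits at 35.1% among the uninjured clusters.

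The clusters of a class were not all alike. In the 5 uninjured EGFP lineage clusters the share ran from 29.3% to 36.1%, and in the 6 day-3 clusters from 21.2% to 35.1%. The highest value in both libraries belonged to cluster 19, led by the contractile genes Acta1, Tpm2, Tagln and Acta2, the single EGFP lineage cluster with at least 50 cells of each library (86 and 239), at 36.1% and 35.1%. Without that cluster the day-3 clusters did not exceed 24.3%. The 3 day-3 macrophage clusters held 9.20% to 12.2%, and the single uninjured one 20.9%.

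The members did not move as a block. In EGFP lineage cells the day-3 level exceeded the uninjured one by 1.5-fold or more for 5 of 82 members and fell short of it by as much for 28, where 32.4% of 8131 genes were higher and 15.7% lower. The median log2 ratio of the members was −0.38, beside 0.19 over all genes, and single members ran from −1.85 to 1.42. At 2-fold, 1 member was higher and 15 lower (17.4% and 6.28% of genes). In macrophages 1 member was at least 1.5-fold higher and 56 lower (54.6% and 11.9% of 8318 genes), with a median of −1.08 beside 0.69. In osteoclasts 5 were higher and 33 lower (42.5% and 7.56% of 7701 genes), with a median of −0.47 beside 0.47, and TMM scaling turned that split into 1 higher and 53 lower. The 33 include Rpl39l, which was under the 10 CPM asked of the genes in that class. In EGFP lineage cells the large subunit had the lower median, −0.43 against −0.31 for the small subunit, and its part of the members' UMIs went from 57.0% to 54.9%. The order was the same in macrophages, at −1.18 and −0.92, and in osteoclasts, at −0.56 and −0.39.

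**Figure D2:**
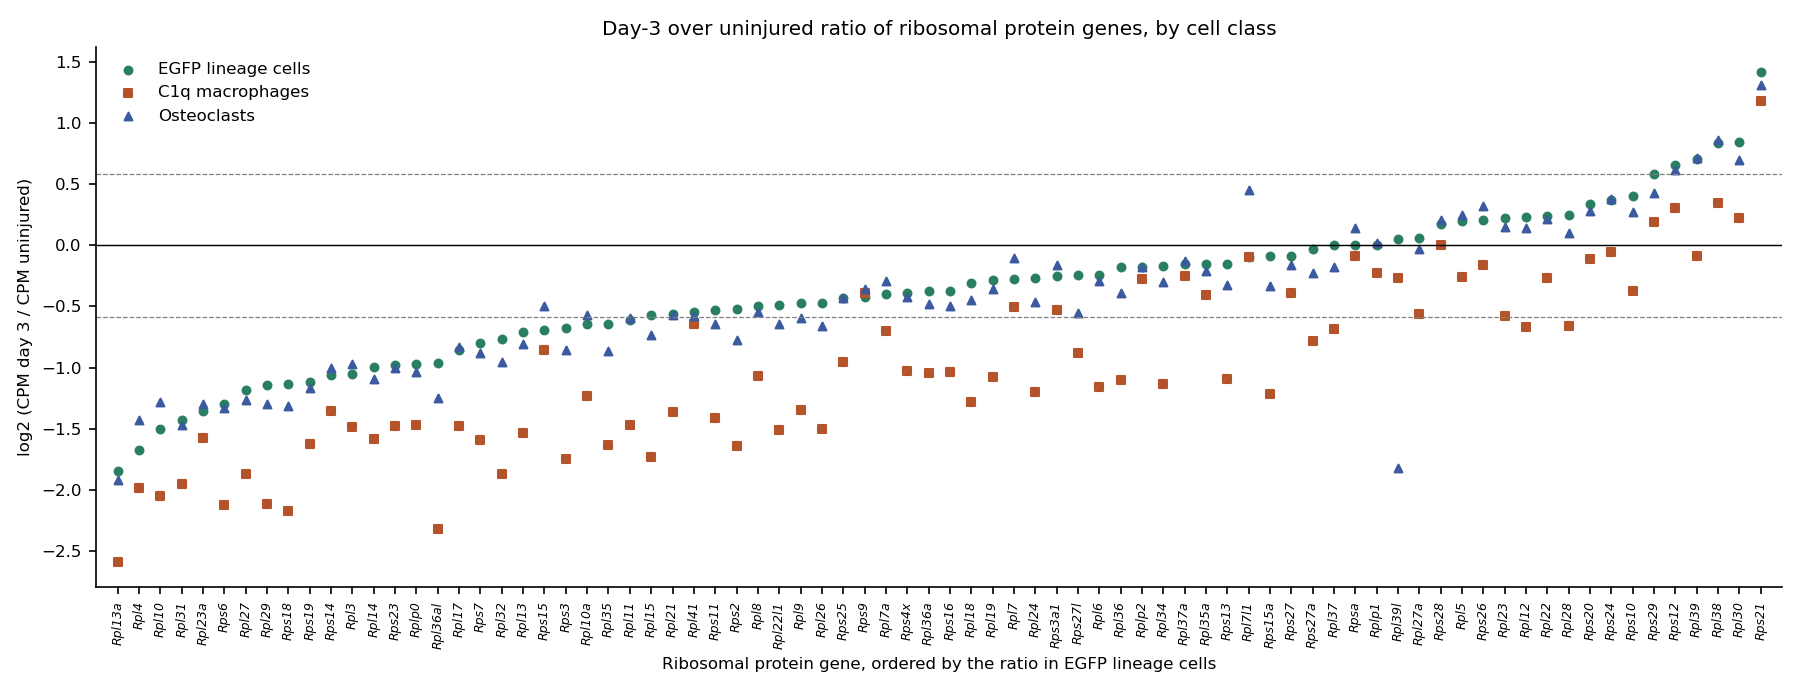
Log2 of the day-3 to uninjured CPM ratio (vertical axis) for 78 of the 82 ribosomal protein genes in EGFP lineage cells (circles), C1q macrophages (squares) and osteoclasts (triangles), ordered by the ratio in EGFP lineage cells, with dashed lines at 1.5-fold. Rpl13a is at the low end at −1.85 and Rps21 at the high end at 1.42, macrophage points lie mostly under the other 2, and Rpl39l stands apart in osteoclasts at −1.82.

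Rps21, a small-subunit protein (gene at chr2:180257377-180258445, plus strand, GRCm38), had the highest ratio and was the single member at least 1.5-fold higher in all 3 classes. It stood at 1361 CPM in uninjured and 3648 CPM in day-3 EGFP lineage cells, a ratio of 2.68 (95% interval 2.66 to 2.70). In macrophages it went from 1024 to 2319 CPM (ratio 2.27) and in osteoclasts from 1777 to 4408 CPM (ratio 2.48). Each of these day-3 classes was thus above each of the uninjured ones, and the lowest day-3 EGFP lineage cluster, at 3454 CPM, was above the highest uninjured one, at 2168 CPM. Across all genes measured in the 3 classes, 23.2% were at least 1.5-fold higher in all of them.

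The next 4 members were at least 1.5-fold higher in EGFP lineage cells and osteoclasts but not in macrophages. Rpl30, a large-subunit protein that binds a kink-turn fold in RNA, went from 1619 to 2901 CPM in EGFP lineage cells (ratio 1.79), and its ratio was 1.17 in macrophages and 1.62 in osteoclasts. Rpl38, a large-subunit protein needed for translation of a subset of Hox mRNAs in the mouse embryo, went from 1988 to 3553 CPM (1.79), with 1.27 in macrophages and 1.81 in osteoclasts. Rpl39, a very short protein in the wall of the peptide exit tunnel, went from 3122 to 5092 CPM (1.63), with 0.941 in macrophages and 1.64 in osteoclasts. Rps12, a small-subunit protein, went from 3282 to 5190 CPM (1.58), with 1.23 and 1.53. For all 4 the macrophage ratio was the lowest of the 3. Rps29, a zinc-binding small-subunit protein and a Diamond-Blackfan anaemia gene, lay just under the 1.5-fold limit in EGFP lineage cells, at 3559 and 5333 CPM (1.498). Rps10 (1.32) and Rps24 (1.29), which also belong to that disease group, came next.

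Rpl13a had the lowest ratio of the 82 members in each of the 3 classes. It encodes a large-subunit protein that can leave the ribosome to repress inflammatory mRNAs after interferon stimulation (gene at chr7:45125558-45128761, minus strand). It stood at 1301 CPM in uninjured and 362 CPM in day-3 EGFP lineage cells, a ratio of 0.278 (0.275 to 0.281). In macrophages it went from 613 to 102 CPM (0.166) and in osteoclasts from 1158 to 307 CPM (0.265). In EGFP lineage clusters the highest day-3 value, 544 CPM, lay under the lowest uninjured one, 1178 CPM.

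The next lowest ratios in EGFP lineage cells included large- and small-subunit proteins. Rpl4, whose extension narrows the exit tunnel, went from 3271 to 1023 CPM in EGFP lineage cells (0.313), with 0.253 in macrophages and 0.372 in osteoclasts. Rpl10, which joins the large subunit last and sits near the P site, went from 4538 to 1605 CPM (0.354), with 0.242 and 0.411. Rpl31 and Rpl23a, at the tunnel's exit, had ratios of 0.371 and 0.391 in EGFP lineage cells, 0.258 and 0.336 in macrophages and 0.360 and 0.406 in osteoclasts. These 4 members were thus lower in all 3 classes, and lowest in macrophages. Rps6, the small-subunit target of S6 kinase, went from 4317 to 1757 CPM (0.407), with 0.229 and 0.397. Rpl27 and Rpl29, both of the large subunit, had EGFP lineage ratios of 0.441 and 0.454.

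By functional group, the exit tunnel proteins included both ends of the range. Of 11 in that list, 2 were at least 1.5-fold higher (Rpl38 and Rpl39) and 5 lower in EGFP lineage cells, with a median log2 ratio of −0.47. In macrophages 0 were higher and 8 lower, with −1.48. Over all genes 32.4% were higher and 15.7% lower in EGFP lineage cells, and 54.6% and 11.9% in macrophages. In the P stalk, which recruits elongation factors, the base Rplp0 went from 9654 to 4920 CPM in EGFP lineage cells (0.510), while the arms Rplp1 (1.00) and Rplp2 (0.884) stayed within 1.5-fold. The 5S RNP proteins, which bind and inhibit Mdm2 when assembly fails, differed too: Rpl11 had a ratio of 0.656 and Rpl5 of 1.15. Of 24 Diamond-Blackfan anaemia genes, 0 were higher and 7 lower in EGFP lineage cells (median −0.30), 0 and 15 in macrophages (−1.16) and 0 and 10 in osteoclasts (−0.42). Among all 82 members 28, 56 and 33 were lower in these classes, so the share of the disease list was near that of the members as a whole.

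Across EGFP lineage clusters, 28 members had every day-3 cluster under every uninjured one in CPM, 4 had every day-3 cluster above (Rps21, Rpl38, Rpl39 and Rps29), and 50 overlapped. Over 9544 genes these shares were 3.17% and 5.93%. Clusters of 1 library share that library and are not replicates. Of these clusters, 4 had more markers of another class than of their own among their 10 leading genes, and 1 was led by cartilage genes. With the clusters that pass the naming rule alone (1167 and 1982 cells), 4 members were higher and 33 lower, and the summed share ratio was 0.725.

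Cluster 19 allows the same comparison within 1 cluster. There the members' median log2 ratio was −0.13, with 10 at least 1.5-fold higher and 13 lower (31.6% and 17.4% of 5394 genes). Rps21 went from 2168 to 5438 CPM (2.51), Rpl39 from 4300 to 6984 CPM (1.62), Rpl4 from 2958 to 1445 CPM (0.488) and Rpl13a from 1201 to 544 CPM (0.453). Members there ran from 0.424 (Rpl31) to 2.51 (Rps21), a narrower range than the 0.278 to 2.68 of the class. Across the 82 members the ratios in cluster 19 and in osteoclasts had a Pearson correlation of 0.888, a description over genes from the same 2 libraries.

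The library ratios of the members largely agreed between the classes, all of which come from the same 2 libraries. Of 82 members, 26 were at least 1.5-fold lower in all 3 classes, against 3.93% of 6511 genes measured in all of them, and 0 were higher in 1 class and lower in another, against 1.64%. The 26 comprise 17 large-subunit genes (among them Rpl3, Rpl11, Rpl13, Rpl14, Rpl32 and Rpl35) and 9 small-subunit genes (among them Rps6, Rps7, Rps18 and Rps23). Rps3, a protein at the mRNA entry that also acts in DNA repair, had ratios of 0.626 in EGFP lineage cells, 0.297 in macrophages and 0.554 in osteoclasts. Rps19, the gene most often mutated in Diamond-Blackfan anaemia, had ratios of 0.461, 0.324 and 0.446. Rps14, whose loss underlies the anaemia of a human chromosome deletion syndrome, had 0.479, 0.390 and 0.499. In EGFP lineage cells 49 members lay within 1.5-fold in both directions, in osteoclasts 44 and in macrophages 25. Their direction without regard to size was the same in all 3 classes for 66, of which 6 were above 1 (Rpl30, Rpl38, Rps12, Rps21, Rps28 and Rps29) and 60 below. The macrophage log2 ratio of Rps28 was only 0.005. With TMM factors Rps21 alone of the 6 stayed above 1 in macrophages, so this direction depends on the scaling. Over all genes 52.7% were above 1 in all 3 classes, 18.8% below and 28.5% mixed, so the members' share with 1 common direction was near that of all genes, while the direction was mostly the opposite one. At 2-fold, 13 members were lower in all 3 (0.983% of genes), 1, Rps21, was higher (8.02%), and 0 were higher in 1 class and lower in another (0.184%). Centred on the median of all genes in each class, 40 were lower in all 3 (11.8% of genes) and 0 higher (7.46%) or opposite (1.6%), so that Rps21's call rests on ratios as CPM. In male cells alone, 27 were lower in all 3 classes and 1 was higher.

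Across the 82 members, Pearson's r of the log2 ratios was 0.907 between EGFP lineage cells and macrophages, 0.926 between EGFP lineage cells and osteoclasts and 0.891 between macrophages and osteoclasts. Over 6427 other genes it was 0.693, 0.698 and 0.775. Those genes entered from 10 CPM in either library of each class and were not matched to the members' levels. The part of counting error in their lower values was not tested. Genes are not independent replicates, and the points share both libraries, so these values describe the 2 libraries only. After each class was centred on its members' median, the median absolute difference per member was 0.23 log2 units between EGFP lineage cells and macrophages, and 0.08 between EGFP lineage cells and osteoclasts.

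**Figure D3:**
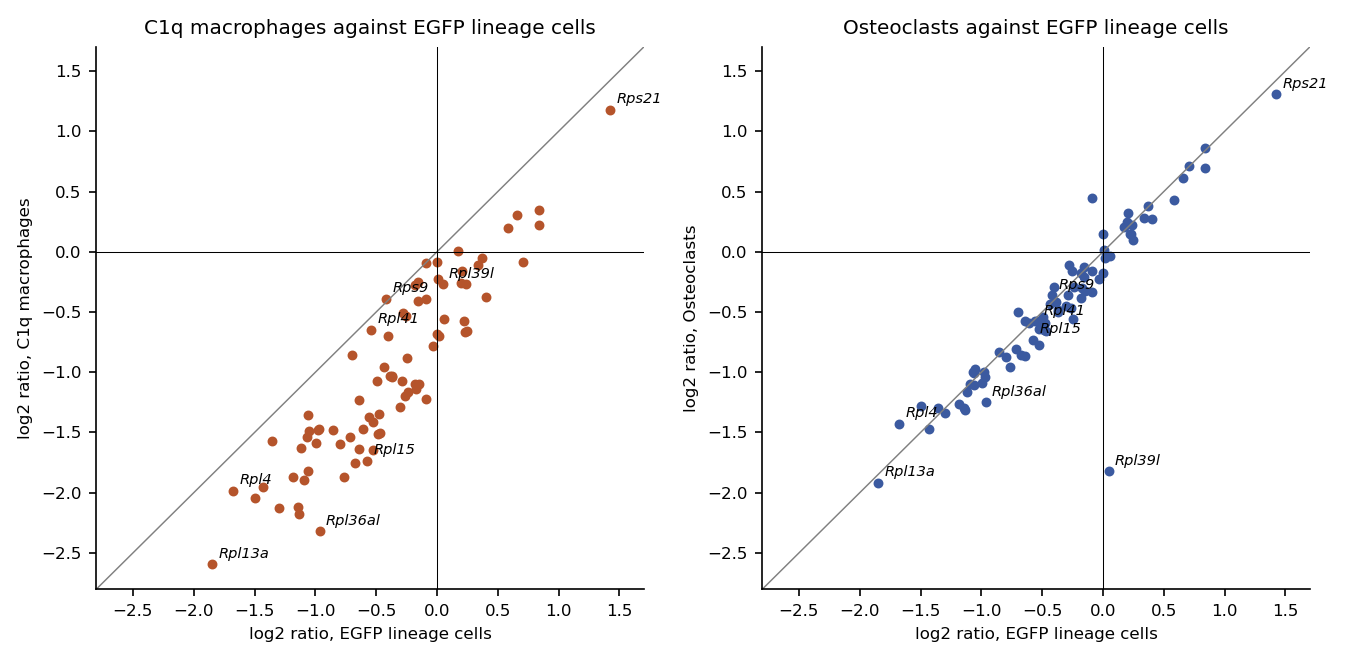
Log2 day-3 over uninjured ratio of each member in EGFP lineage cells (horizontal axis) against C1q macrophages (left) and osteoclasts (right), with the line of equality in grey. Macrophage points run along the line but under it, osteoclast points on it, with r = 0.907 and r = 0.926, and Rpl39l lies off the osteoclast line.

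The classes differed in level more than in order. The macrophage ratio was the lowest of the 3 for 79 of 82 members, the exceptions being Rpl39l, Rpl7l1 and Rps9. EGFP lineage cells and osteoclasts lay within 0.3 log2 units of each other for 79 members, and EGFP lineage cells and macrophages for 15. There were 10 members with a range of at most 0.3 over the 3 classes. The narrowest was that of Rps9, a small-subunit protein at the mRNA entry, whose ratios were 0.748, 0.764 and 0.780 in EGFP lineage cells, macrophages and osteoclasts. Rpl41, a minute basic peptide between the subunits and the member with the most UMIs, also had close ratios, at 0.686, 0.639 and 0.670. The widest ranges were those of Rpl39l (1.87 log2 units), Rpl36al (1.35), Rpl15 (1.16), Rps15a (1.13), Rps2 (1.12) and Rpl32 (1.11), and all but Rpl39l had their lowest ratio in macrophages. The range of Rpl39l rests on 15 and 28 UMIs in osteoclasts, under 10 CPM in both libraries, and is less certain. Rps15a, for example, went from 4236 to 3988 CPM in EGFP lineage cells (0.941) and from 2846 to 1221 CPM in macrophages (0.429). Rps2, at the mRNA entry like Rps9, went from 8302 to 5771 CPM (0.695) and from 4084 to 1308 CPM (0.320).

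Within 1 library, where all classes share the kit and the free RNA, macrophages had lower levels than EGFP lineage cells. In the uninjured library 38 members were at least 1.5-fold lower and 0 higher (27.4% and 25.4% of 8268 genes), and at day 3, 74 were lower and 0 higher (24.8% and 40.9% of 9183 genes). The uninjured count depended on the scaling: totals without member UMIs gave 64 lower. Osteoclasts were close to EGFP lineage cells in the uninjured library, with 3 members lower and 0 higher (35.5% and 24.7% of genes), namely Rpl39l (0.080 times), Rps20 (0.593) and Rps27l (0.598). At day 3, 5 members were lower and 0 higher (26.3% and 28.8%), the same 3 with Rps2 (0.621) and Rpl15 (0.662). Day-3 neutrophils had 78 members lower and 0 higher (55.6% and 21.7% of 8716 genes).

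When each member was taken as a share of all member UMIs, most of these differences fell within 1.5-fold. In macrophages 2 members were then lower and 2 higher in the uninjured library, Rpl39l and Rpl3 against Rps29 and Rpl36al, and 11 and 6 at day 3. In neutrophils 10 were lower and 5 higher. Rps29 was the member most raised in macrophages, at 1.99 times its EGFP lineage share in the uninjured library and 2.20 times at day 3, and in neutrophils it was at 1.62 times. The other 4 raised in neutrophils were Rps9 (1.74), Rps24 (1.54), Rpl37a (1.52), whose protein sits in the large subunit, and Rpl35a (1.503). The lowest were Rpl39l (0.159), Rps27l (0.343), Rps2 (0.372), Rpl13a (0.425) and Rplp1 (0.481).

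In CPM, Rps9 stood at 2805 in day-3 EGFP lineage cells, 2012 in macrophages, 2941 in osteoclasts and 2147 in neutrophils. Rps2 stood at 5771, 1308, 3585 and 944 CPM in the same order, a far wider spread. Rplp1, 1 of the 5 members with the most UMIs, was at 6709, 3871, 6495 and 1418 CPM. Rpl13 and Rplp0 were also among these 5, and their neutrophil levels were 0.401 and 0.305 times those of EGFP lineage cells. Ranks by UMIs, and the shares of gene pairs below, are shares of captured UMIs and give no order of expression between genes, because 3′ capture can differ between them.

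Several members have a paralogue that also matches the rule, and 1 pair separated the classes. Rpl39l, a paralogue of Rpl39 known mainly from male germ cells, stood at 121 and 126 CPM in uninjured and day-3 EGFP lineage cells. It was at 8.10 and 6.71 CPM in macrophages, 9.70 and 2.74 CPM in osteoclasts and 8.74 CPM in day-3 neutrophils. EGFP, which these other classes should lack, was at 97.99 and 54.1 CPM in macrophages, 77.6 and 29.8 CPM in osteoclasts and 107.7 CPM in day-3 neutrophils. Relative to EGFP lineage cells, Rpl39l was at 6.67% and 5.34% in macrophages, 7.99% and 2.18% in osteoclasts and 6.96% in day-3 neutrophils, and EGFP at 3.82% and 2.94%, 3.02% and 1.62%, and 5.85%. The osteoclast ratio was 0.283 (0.146 to 0.569) for Rpl39l, and EGFP was lower there at day 3 too. The part of free RNA in this ratio was not tested. Among EGFP lineage clusters Rpl39l ranged from 62.2 to 179.9 CPM in the uninjured library and from 15.5 to 180.5 CPM at day 3, with overlap.

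The coding sequences of this pair are printed because the 2 mRNAs have to be told apart to be counted. Each runs from the start to the stop codon, 156 bases, from the GRCm38 annotation, and capitals mark the 23 bases that differ, which leaves 85.3% identity.
Rpl39, chromosome X: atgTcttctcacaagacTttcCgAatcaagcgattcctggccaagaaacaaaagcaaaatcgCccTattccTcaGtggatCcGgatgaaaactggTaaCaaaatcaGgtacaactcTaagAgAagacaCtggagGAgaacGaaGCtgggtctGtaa
Rpl39l, chromosome 16: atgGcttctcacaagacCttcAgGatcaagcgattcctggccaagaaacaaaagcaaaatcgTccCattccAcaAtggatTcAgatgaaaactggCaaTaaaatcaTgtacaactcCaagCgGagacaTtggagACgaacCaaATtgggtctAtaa

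The last 300 bases of the 2 transcripts, nearer to where a 3′ library reads, shared no stretch longer than 11 bases in a local alignment. As a share of the UMIs of both genes, Rpl39l made up 3.74% (3.66% to 3.83%) in uninjured and 2.41% (2.37% to 2.44%) in day-3 EGFP lineage cells, with ratios of 1.03 for Rpl39l and 1.63 for Rpl39. In the other classes it made up at most 0.408%.

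Rps27l, a paralogue of Rps27 that p53 induces, had its lowest share in neutrophils. It made up 35.1% of the pair's UMIs in uninjured and 32.6% in day-3 EGFP lineage cells, 40.3% and 32.6% in macrophages and 26.6% and 21.6% in osteoclasts. Day-3 neutrophils had 11.2% (10.2% to 12.3%), from 233 CPM of Rps27l beside 1850 CPM of Rps27. In a local alignment the last 300 bases of the 2 transcripts aligned over 143 bases, against 11 for the Rpl39 pair. The effect of this on the shares was not tested. The 2 coding sequences have 255 bases each and differ at 61, an identity of 76.1%, with the differences in capitals.
Rps27, chromosome 3: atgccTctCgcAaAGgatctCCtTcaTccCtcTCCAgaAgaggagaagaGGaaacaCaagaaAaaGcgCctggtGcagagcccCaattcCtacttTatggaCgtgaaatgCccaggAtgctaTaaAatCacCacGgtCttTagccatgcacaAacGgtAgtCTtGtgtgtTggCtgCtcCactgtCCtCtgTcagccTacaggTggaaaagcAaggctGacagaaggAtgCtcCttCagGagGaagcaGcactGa
Rps27l, chromosome 9: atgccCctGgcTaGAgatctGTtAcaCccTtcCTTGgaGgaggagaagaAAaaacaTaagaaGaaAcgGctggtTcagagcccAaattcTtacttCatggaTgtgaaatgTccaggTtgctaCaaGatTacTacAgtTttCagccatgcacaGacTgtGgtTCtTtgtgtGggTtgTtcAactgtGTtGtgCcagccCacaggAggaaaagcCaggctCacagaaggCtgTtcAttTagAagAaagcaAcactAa

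Rpl22l1 and Rpl36al, paralogues of Rpl22 and Rpl36a, made up less of their pair at day 3 in all 3 classes. Rpl22l1, whose product and Rpl22 are known to regulate each other, went from 47.5% to 35.3% in EGFP lineage cells, 43.5% to 24.5% in macrophages and 42.0% to 28.5% in osteoclasts. Rpl36al went from 22.0% to 15.7%, 29.6% to 14.8% and 24.0% to 15.7%. The last 300 bases of the transcripts aligned over 135 bases in the Rpl22 pair and 189 in the Rpl36a pair. The effect of this on the shares was not tested. In both pairs the shift was largest in macrophages. Rpl7l1, a paralogue of Rpl7 with a role in ribosome assembly, moved the other way, from 3.50% to 3.96%, 6.27% to 8.18% and 3.63% to 5.25%. Rpl3l, a form known from striated muscle, was at 0 of 251971 UMIs of its pair in uninjured EGFP lineage cells, which allows up to 0.00146% by the exact interval. It was detected in other classes, with 21 UMIs (0.126% of the pair) in day-3 osteoclasts and 7 (0.721%) in day-3 neutrophils. Rpl10l, a form known from testis, gave 1 UMI in uninjured macrophages and 0 in the other classes.

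**Figure D4:**
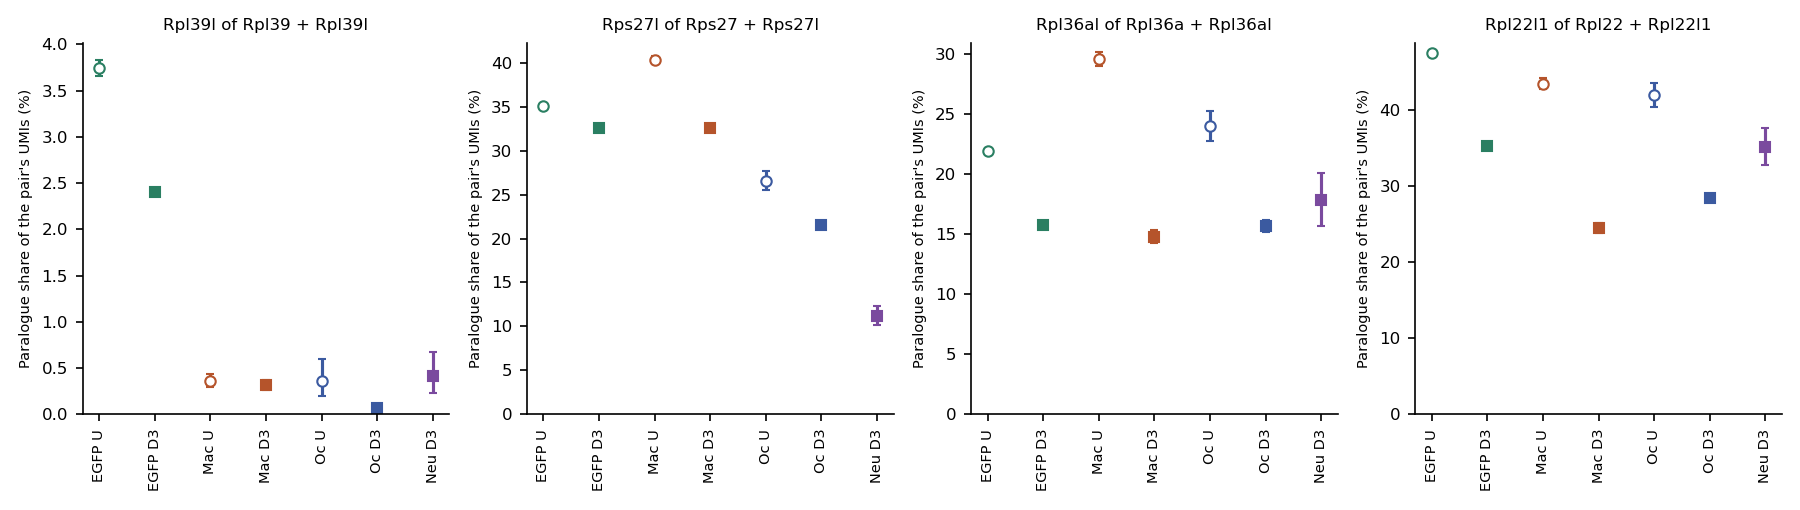
Share of a paralogue in the UMIs of its pair (%, vertical axis) in EGFP lineage cells (EGFP), macrophages (Mac), osteoclasts (Oc) and neutrophils (Neu), uninjured (U, open) and day 3 (D3, filled), with 95% binomial intervals for counting error. Rpl39l is highest in EGFP lineage cells at 3.74% and 2.41%, Rps27l is lowest in neutrophils at 11.2%, and Rpl36al and Rpl22l1 are lower at day 3 in the 3 classes with both libraries.

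Members with short coding sequences had the higher ratios. The 21 members of 78 to 360 bases had a median log2 ratio of −0.00 in EGFP lineage cells, the 38 of 369 to 591 bases −0.48 and the 23 of 612 to 1260 bases −0.57. At least 1.5-fold higher were 4, 1 and 0 members of these groups, and at least 1.5-fold lower 1, 16 and 11. Over all genes in EGFP lineage cells 32.4% were higher and 15.7% lower. The medians had the same order in macrophages (−0.27, −1.35 and −1.47) and osteoclasts (−0.16, −0.58 and −0.73). Pearson's r between log2 coding length and log2 ratio over the 82 members was −0.42, −0.40 and −0.27 in the 3 classes, while over the other genes tested, 7958 in EGFP lineage cells, it was 0.32, 0.49 and 0.43. Rpl41, with the shortest coding sequence at 78 bases, went against the order with a ratio of 0.686. Whole transcript length and GC content had weaker relations among the members in EGFP lineage cells, with r of −0.08 and −0.20.

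**Figure D5:**
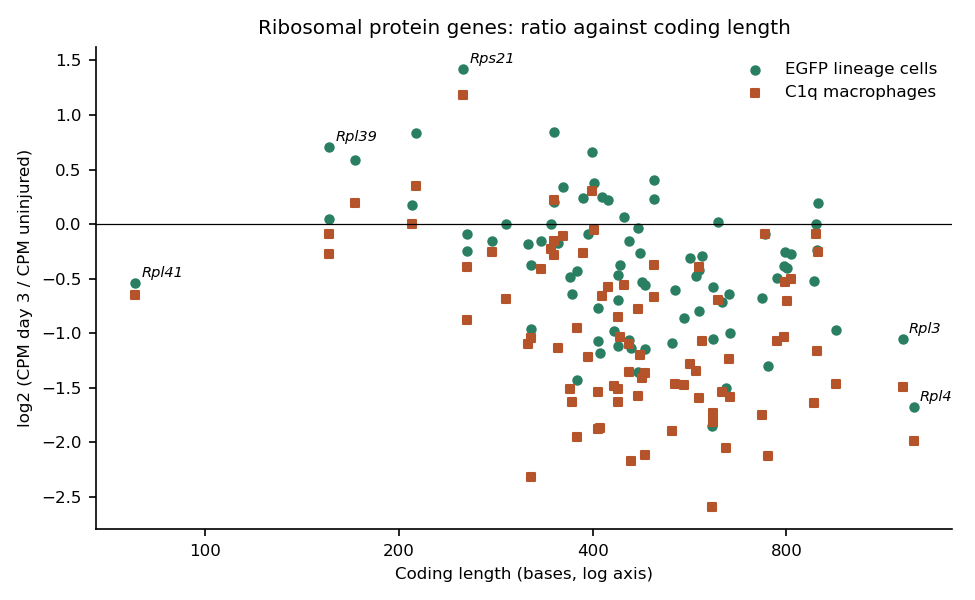
Log2 day-3 over uninjured ratio (vertical axis) against coding length in bases (horizontal, log axis) for the 82 members in EGFP lineage cells (circles) and macrophages (squares). Rps21 and Rpl39 are high among the short members and Rpl4 low at the long end, while Rpl41 at 78 bases is at −0.54.

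Ribosomal protein genes have many near-identical copies in the genome, and the counts of some members can depend on how reads that match several genes were treated, a step that the sources used here do not state. Of the 82 members, 57 had at least 1 other annotated gene with 97% identity or more over at least 90 of the last 300 bases, and for 16 such a gene was in the count tables. By this search Rps21, Rpl13a, Rpl4, Rps24 and Rpl39l had none. Rpl29 had 21, Rps12 15, Rpl23a 12, Rpl31 11, Rpl30 10, Rpl10 9 and Rpl39 4, so the values of the latter are less certain. The transcripts searched for Rpl13a, Rps24 and Rpl39l end in 388, 1173 and 446 untranslated bases. Copies of their coding part could thus not be found, and these members are not shown to lack copies. Rpl13a-ps1, by its symbol a pseudogene of Rpl13a, had 77 and 14 UMIs in EGFP lineage cells. Over the 82 members the log2 number of copies and the log2 ratio in EGFP lineage cells had r = −0.11. Copies did not always share the ratio of their member: Rpl10-ps3 (0.371) was close to Rpl10 (0.354), whereas Rps12-ps3 went from 6.52 to 32.6 CPM (5.01) beside 1.58 for Rps12, and Gm10073 from 30.8 to 92.6 CPM (3.01) beside 1.00 for Rplp1. Rps27rt, a retrotransposed copy of Rps27, went the other way, from 92.5 to 31.2 CPM (0.337) beside 0.942. In macrophages these 3 copies had ratios of 9.83, 2.25 and 0.407, and in osteoclasts 9.11, 2.18 and 0.340. Gm10076, a copy of Rpl41, went from 446 to 677 CPM in EGFP lineage cells (1.52) beside 0.686 for Rpl41. Its ratios were 1.09 in macrophages and 1.40 in osteoclasts, beside 0.639 and 0.670, so the values of Rpl41 are also less certain.

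Other genes of the translation machinery are given from lists chosen for their role. Of 6 elongation factor genes, 0 were at least 1.5-fold higher and 2 lower in EGFP lineage cells (median log2 ratio −0.47). Eef1g was at 0.462, Eef2 at 0.551 and Eef1b2 at 1.43. In macrophages 0 were higher and 3 lower. Over all genes 32.4% were higher and 15.7% lower in EGFP lineage cells, and 54.6% and 11.9% in macrophages. Of 9 other genes with TOP mRNAs, 3 were higher and 0 lower in EGFP lineage cells (median 0.38), among them Tpt1, which encodes the growth-associated protein TCTP and went from 2639 to 7590 CPM (2.88), and Nap1l1, a histone chaperone gene (2.26). The share of this list that was higher was near the 32.4% of all genes. These values lie on both sides of 1, as those of the members do.

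Initiation factors and ribosome biogenesis genes had higher medians than the members. Of 28 initiation factor genes, 8 were higher and 4 lower in EGFP lineage cells (0.07), with Eif2s3x at 2.28 and Eif3f at 0.454. Both shares were near those of all genes, 32.4% and 15.7%. Of 38 ribosome biogenesis genes, 13 were higher and 1 lower in EGFP lineage cells (0.44), 8 and 7 in macrophages (0.10) and 17 and 2 in osteoclasts (0.48). Beside the 32.4%, 54.6% and 42.5% of all genes that were higher in these classes, the list's share was similar in EGFP lineage cells and osteoclasts and smaller in macrophages. Nop58, a core protein of box C/D particles that guide rRNA methylation, went from 62.9 to 190.6 CPM in EGFP lineage cells (3.03), and Polr1c, a subunit of RNA polymerases I and III, from 71.2 to 43.0 CPM (0.604). Of 77 mitochondrial ribosomal protein genes measured, 1 was higher and 17 lower in EGFP lineage cells (−0.31), and in macrophages 1 and 52 of 75 (−0.75). In osteoclasts 4 of 77 were higher and 11 lower (−0.23). Over all genes 15.7%, 11.9% and 7.56% were lower in EGFP lineage cells, macrophages and osteoclasts. Mrps6 was the 1 that was higher in EGFP lineage cells, from 79.6 to 278.0 CPM (3.49). The mitochondrial list thus had a lower median in macrophages than in EGFP lineage cells, as the cytosolic members did. Its osteoclast median lay above that of EGFP lineage cells, whereas the members had −0.47 in osteoclasts and −0.38 in EGFP lineage cells.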

How the data were processed

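Periosteal cells were profiled in 2 droplet libraries, 1 per group. The deposited values are raw UMI counts for each gene in each barcode, per the file headers and because all are whole numbers. The build was mm10 and the tools were Seurat 4.0.1 and Cell Ranger, per the submitters' processing notes, and software version 3.1.0 stands in the matrix header. How reads that match several genes were counted, and how barcodes were called, is not stated in the sources used here. Protocols in the labels describe a culture to confluence, while the series' design text speaks of no expansion.

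Barcodes under 500 genes or 1000 UMIs were removed (69 uninjured, 1412 at day 3), then those over 10% mitochondrial UMIs (73 and 457). Scrublet's automatic threshold marked 0 and 0 doublets and so had not worked. The highest scores were removed instead at 0.8% per 1000 barcodes (157 and 1673). Kept cells were clustered without cytosolic and mitochondrial ribosomal protein genes and mitochondrial genes (2000 variable genes, 30 components, 15 neighbours, Leiden resolution 1, seed 0). Clusters were matched to marker lists. The limits of 1000 CPM of EGFP and of 50% of cells for C1q genes were set after the clusters were seen. Clusters outside the 4 classes held 20.5% of uninjured and 39.7% of day-3 cells. At day 3 most of these cells were in other myeloid clusters. In the uninjured library 629 of the 878 were in 1 cluster that best matched the lineage markers, at 767 CPM of EGFP. Each C1q gene was found in at least 82.4% of its cells, and clusters with both lineage and macrophage markers were left out.

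UMIs were summed per class and library and given as CPM. Ratios are day 3 over uninjured with exact conditional binomial 95% intervals, shares have Clopper-Pearson intervals, and a member counted as higher or lower at 1.5-fold. No test was made, since each group is 1 library. On simulated data for the EGFP lineage comparison (7594 genes), 200 of 200 changed and 0 of 7394 unchanged genes passed 1.5-fold. With counting error alone, 95.0% of intervals held the true ratio. The planted changes were all well past 1.5-fold and the counts followed the model that the intervals assume. The outcome was thus largely set in advance and does not bear on changes near the limit. Coding sequences and copies came from the GRCm38 annotation (BLAST+ 2.17.0), start windows from RefSeq. Tools were Python 3.11.15, scanpy 1.11.5, leidenalg 0.10.2, scipy 1.17.1, pandas 2.3.3 and edgeR 4.0.16 (TMM factors only).

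The members and lists were chosen with earlier results of these data known. Named members are the 8 highest and 8 lowest ratios in EGFP lineage cells, the 6 widest ranges over classes, the 5 highest and 5 lowest neutrophil shares, the 5 with the most UMIs, and paralogue pairs, with the 2 highest and 2 lowest of each list. Other members named beside a count were chosen after their values were seen. Some genes that the rules would name are not reported here. Alternatives were other scalings, cell weights, thinning, doublet, cycling and sex selections, class definitions and minimum levels.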

Additional observations from a re-analysis of the deposited data

Results flagged for a closer look

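For 14 of the members reported here the counting intervals put the day-3 ratio above 1 in 1 class and below 1 in another. Over 6511 genes 16.2% were split in this way, so the pattern was about as frequent among the members as among all genes. No difference between classes was tested, since each class has 1 library per group and all share both libraries. In 12 of the 14 the low class was macrophages. The macrophage ratio and the highest ratio were 0.631 and 1.17 for Rpl12, 0.833 and 1.18 for Rpl22, 0.671 and 1.17 for Rpl23, 0.679 and 1.04 for Rpl27a, and 0.634 and 1.18 for Rpl28, each highest in EGFP lineage cells. All 5 encode large-subunit proteins. For Rps10 they were 0.773 and 1.32, and for Rps20 0.925 and 1.26, again highest in EGFP lineage cells. Osteoclasts were highest for Rpl39 (0.941 and 1.64), Rpl5 (0.835 and 1.19), Rps24 (0.964 and 1.30), Rps26 (0.897 and 1.25) and Rpsa (0.941 and 1.11). The other 2 members belong to paralogue pairs: Rpl39l was at 0.283 in osteoclasts and 1.03 in EGFP lineage cells, and Rpl7l1 at 0.938 in EGFP lineage cells and 1.37 in osteoclasts.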

How the results depend on the processing

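With 1 library per group, no alternative measures how far animals or cultures vary. Depth limits only the rarest members, Rpl39l outside EGFP lineage cells and neutrophils in the uninjured library (7 cells). Among ratios at least 1.5-fold as reported, none of the 16 members named for EGFP lineage ratios changed direction under 11 settings in any class. Smaller ratios were not counted in this way. With TMM factors the macrophage ratios of Rpl30, Rpl38, Rps12 and Rps29 went from above 1 to under it. Member ratios kept a correlation of at least 0.988 with those reported. For TMM factors and totals without member UMIs it is 1 by construction, since these shift all ratios of a class alike. No paired analysis was possible because the groups share only the replicate number 1, given in accession order, and there is 1 library in each.

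TMM factors gave median log2 ratios of −0.45, −1.60 and −0.80 and share ratios of 0.743, 0.378 and 0.602 in EGFP lineage cells, macrophages and osteoclasts. Osteoclasts then had 1 member higher and 53 lower, and 1 member (Rpl39) was higher in 1 class and lower in another. Against EGFP lineage cells, TMM left 15 members lower and 1 higher in uninjured macrophages, 2 higher in uninjured osteoclasts and 8 lower in day-3 osteoclasts. With member UMIs left out of the total, medians were −0.52, −1.25 and −0.62 and share ratios 0.707, 0.480 and 0.682. Then 3 members were higher in EGFP lineage cells, 2 in osteoclasts, and 64 were lower in uninjured macrophages than in EGFP lineage cells.

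With equal weight per cell the share ratios were 0.777, 0.503 and 0.736, the macrophage median was −1.23, and 1 member was higher in uninjured osteoclasts than in EGFP lineage cells. Thinning each cell to 3000 UMIs gave 0.786, 0.517 and 0.737, with a macrophage median of −1.17. No doublet removal gave medians of −0.42, −1.11 and −0.55 and share ratios of 0.749, 0.533 and 0.719. Without cycling cells, medians were −0.44 and −1.16 in EGFP lineage cells and macrophages, share ratios 0.741, 0.507 and 0.737 (43 uninjured osteoclasts), and 5 members were lower in uninjured osteoclasts than in EGFP lineage cells. Male cells alone gave −0.41 and −1.15, with share ratios of 0.762, 0.511 and 0.766, and 3 members lower in day-3 osteoclasts than in EGFP lineage cells.

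Classes by marker UMIs per cell gave medians of −0.40 and −0.77 and share ratios of 0.768 and 0.639 in EGFP lineage cells and macrophages. With no minimum level, which adds Rpl3l and Rpl10l, 1 member (Rpl3l) was higher in 1 class and lower in another. Against EGFP lineage cells, 2 were then higher in uninjured macrophages, and 1 each in uninjured osteoclasts, day-3 macrophages, day-3 osteoclasts and day-3 neutrophils. A minimum of 100 CPM gave an EGFP lineage median of −0.39.

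Of settings chosen after seeing the data, EGFP lineage clusters that pass the naming rule gave a median of −0.45, a share ratio of 0.725 and 5 members lower in uninjured osteoclasts. Adding clusters at 500 to 1000 CPM of EGFP gave −0.41 and 0.756. Adding the second osteoclast cluster gave −0.40 and 0.777 in osteoclasts.

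At 2-fold, 13 members were lower in all 3 classes, and centring on all genes gave 40 lower and 0 higher. As shares of member UMIs, 2 were lower and 2 higher than in EGFP lineage cells in uninjured macrophages, 1 higher in uninjured osteoclasts, 11 lower and 6 higher in day-3 macrophages, 3 lower and 1 higher in day-3 osteoclasts, and 10 lower and 5 higher in day-3 neutrophils. Except where the setting itself shows it (another total, fewer cells or genes), the cause was not tested.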
